A study of Mus musculus with 18 samples.

Results

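The 10 genes described here encode the chondroitin sulfate proteoglycans of the oligodendrocyte lineage and the proteins that tie them into the extracellular matrix: Cspg4, Vcan, Bcan, Ncan, Acan, Cspg5, Ptprz1, Tnr, Hapln1 and Hapln2. They were matched by gene name, from a list chosen with earlier results of these data known. All 10 were present, and they were followed among the 38046 genes to which the transcript table was summed. The libraries came from clonal mouse oligodendrocyte progenitor cell (OPC) lines derived from primary neural stem cells. A total of 3 control clones (D7, D3 and E8) and 3 clones labelled Thap1 null (3F, D6 and 7F) were each sequenced once at 3 stages, which gave 6 groups of 3 libraries. The series concerns oligodendrocyte development under THAP1, a transcription factor with a zinc finger. OPC libraries were taken on day 0 in growth medium with PDGF-AA, the mitogen that keeps OPCs dividing. DIV2 and DIV4 libraries were taken after 2 and 4 days in oligodendrocyte differentiation medium with the thyroid hormone T3 at 40 µg/ml. Every line is a single clone, so a p-value measures the spread between clones, and the limma fits pool that spread over all 6 groups. How the null lines were made, and whether the clones of 1 genotype came from separate animals, is not given in the sources used here.

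Chondroitin sulfate proteoglycans are core proteins that carry long sulfated sugar chains. The lecticans (versican, brevican, neurocan and aggrecan) bind hyaluronan at one end and tenascin-R at the other, link proteins of the Hapln family lock them onto hyaluronan, and others (NG2, neuroglycan C and the phosphatase PTPRZ1) sit in the cell membrane. In the brain they build the pericellular matrix, including the perineuronal net and the matrix at the nodes of Ranvier, and NG2 on the surface of OPCs gives these cells one of their names.

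Levels are given as rescaled TPM. TPM (transcript abundance) corrects for transcript length and sets each library to 1000000, and here each library was further divided by a scaling factor, the median ratio of its genes to their means over all libraries, so that the middle gene is level across libraries. That step matters most in control OPCs. There, Gm26924, Gm15662 and mmu-mir-6236, 3 noncoding features singled out after their values were seen, held 64.8% to 88.0% of the deposited TPM, against 0.789% to 34.8% in null OPCs and 0.359% to 3.17% in the 12 later libraries. On the deposited scale 10407 of 10446 genes called between the genotypes in OPCs were higher in null, and after rescaling 751 of 1492 were. The median of all genes on the deposited scale was shifted by 1.503 (log2) in that comparison, and by 1.96 and 2.01 in control DIV2 and DIV4 against OPC, so deposited changes are given below relative to that median. With protein-coding transcripts alone, 2610 of 2796 called genes were higher in null OPCs, around a median shift of 0.41. TPM keeps no sequencing depth, so precision rests on the 3 clones per group.

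The targeted gene followed the labels in its coding transcripts. The 2 protein-coding transcripts of Thap1 summed to 4.06 ± 0.591 rescaled TPM (SD, n = 3) in control OPCs and 0.619 ± 0.149 in null OPCs. They were at 2.41 ± 0.448 against 0.556 ± 0.187 at DIV2, and 2.99 ± 0.720 against 0.474 ± 0.282 at DIV4. Summed over all 3 Thap1 transcripts, the null libraries were not lower (10.6 against 6.06 in OPCs). Lineage markers matched the labels: Pdgfra, the PDGF receptor of OPCs, was at 99.3 ± 5.01 in control and 91.5 ± 16.7 in null OPCs, and the mesenchymal and pericyte markers (8 genes) summed to at most 1.81 in every group (Col1a1 at most 1.058). The myelin gene Mbp went from 33.6 ± 48.1 in control OPCs to 1185 ± 360.0 at DIV2, Sox10 lay between 50.1 and 124 in all libraries, microglial markers (9 genes) summed to 0.423 to 4.8 and neuronal markers (12 genes) to 69.5 to 159.6. Among the control libraries 2 stood apart. The OPC library of clone D3 had a summed level of 12 cell cycle genes of 69.5, against 663 and 809 in the other control OPCs and 643 to 787 in null OPCs. Its 14 oligodendrocyte markers summed to 1046, against 177 and 417 in the other control OPCs and 433 to 660 in null OPCs. The DIV4 library of clone D7 had a summed level of 14 oligodendrocyte markers of 13630, against 2425 to 3393 in the other DIV4 libraries, and a summed level of 9 astrocyte markers of 16.2, against 207.6 to 508. Results that rest on either library are given with and without it.

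The 10 genes lie on 7 chromosomes in the GENCODE M21 annotation of GRCm38. Each of the 4 lecticans lies next to a link protein gene, with 0 annotated genes in between. Bcan (chr3:87987531-88000230, minus strand) lies 21.5 kb from Hapln2 (chr3:88021750-88027583, minus strand). Vcan (chr13:89655312-89742509, minus strand) lies 43.7 kb from Hapln1 (chr13:89539796-89611652, plus strand). Ncan (chr8:70093085-70120873, minus strand) lies 2.2 kb from Hapln4, and Acan (chr7:79053483-79115099, plus strand) lies 2 bases from Hapln3. The others are Cspg4 (chr9:56865033-56899870), Cspg5 (chr9:110243783-110262576), Ptprz1 (chr6:22875502-23052916) and Tnr (chr1:159523769-159931729), all on the plus strand. At most 1.41% of the 31-base words of a member's transcripts (Cspg5) also occur in another gene, so few reads could be split with a near-identical copy.

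The stretches upstream of Cspg4, Hapln2 and Acan are shown because these were the 3 genes whose levels differed most between the genotypes. They are RefSeq sequences of GRCm38.p6, 5′ to 3′ on the gene's strand, at chr9:56864854-56865032 (plus), chr3:88027584-88027761 (minus) and chr7:79052976-79053225 (plus), shown as far as the first base annotated as transcribed.
Cspg4: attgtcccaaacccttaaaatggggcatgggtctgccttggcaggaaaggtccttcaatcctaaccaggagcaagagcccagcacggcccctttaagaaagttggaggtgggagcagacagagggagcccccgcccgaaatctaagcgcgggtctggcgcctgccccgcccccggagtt
Hapln2: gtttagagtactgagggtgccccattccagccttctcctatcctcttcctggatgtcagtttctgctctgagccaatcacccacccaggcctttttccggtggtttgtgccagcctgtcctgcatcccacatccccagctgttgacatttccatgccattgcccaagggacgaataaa
Acan: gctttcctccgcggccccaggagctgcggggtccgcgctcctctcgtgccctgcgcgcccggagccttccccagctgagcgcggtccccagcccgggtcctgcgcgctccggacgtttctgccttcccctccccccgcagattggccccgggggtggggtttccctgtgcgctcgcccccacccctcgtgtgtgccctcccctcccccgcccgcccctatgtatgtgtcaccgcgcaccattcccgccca
The window of 250 bases before the RefSeq start holds 60.4% G and C for Cspg4, 52.4% for Hapln2 and 74.4% for Acan. THAP1 is known to bind DNA around a GGCA core. The word TNNGGGCA, searched on both strands, occurs in 11.9% of 32817 windows of this length and in 1 of the 9 members that have a window (Hapln1), so nothing is in capitals above.

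From OPC to DIV2 members moved in both directions. The membrane proteoglycans Cspg4, Cspg5 and Ptprz1 fell in both genotypes, although Cspg5 and Ptprz1 read 0.35 and 0.64 higher in control on the deposited scale (-1.61 and -1.32 relative to the median gene). Bcan, the brain lectican, and Tnr, the tenascin that cross-links lecticans, rose in both genotypes. In all, 7 of the 10 genes passed the filter of a mean of at least 1 rescaled TPM and were tested with limma across 12473 genes. The other 3 (Acan, Hapln1 and Hapln2) lie below that level and are treated on their own further down. In control clones 2 members rose and 3 fell, where 17.7% of all tested genes rose and 17.3% fell. In null clones again 2 rose and 3 fell, where 14.4% of all genes rose and 13.5% fell. The genes counted in each direction were the same in both genotypes, and the median member change was -1.20 in control and -0.98 in null, against 0.02 and -0.02 for all genes.

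At DIV4 fewer members stood away from their OPC level. In control clones 1 member was higher (Tnr) and 2 were lower (Cspg4, with Vcan), where 16.1% of all genes were higher and 16.1% lower, and on the deposited scale both lower members read higher (0.28 and 1.36, which is -1.74 and -0.65 relative to the median gene). In null clones 2 were higher (Bcan and Tnr) and 2 lower (Ptprz1 and Vcan), where 16.5% of all genes were higher and 16.8% lower. Between DIV2 and DIV4 limma called 0 members in control, where 0.104% of all genes were higher and 0.128% lower, with 1 member at an unadjusted p under 0.05. In null it also called 0, where 1.06% of genes were higher and 1.04% lower, with 4 members at an unadjusted p under 0.05. Without the control D7 library of DIV4, 4 members were called in each of these 2 comparisons, and the calls over all genes went up as well, to 676 in control and 661 in null. In control the members were Cspg4, Cspg5, Ncan and Ptprz1, all higher at DIV4, where 3.01% of all genes were then higher and 2.41% lower. In null Cspg4, Cspg5 and Ncan were higher and Vcan lower, where 2.79% of all genes were then higher and 2.51% lower. That library enters the null comparison only through the shared estimate of the spread.

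**Figure D1:**
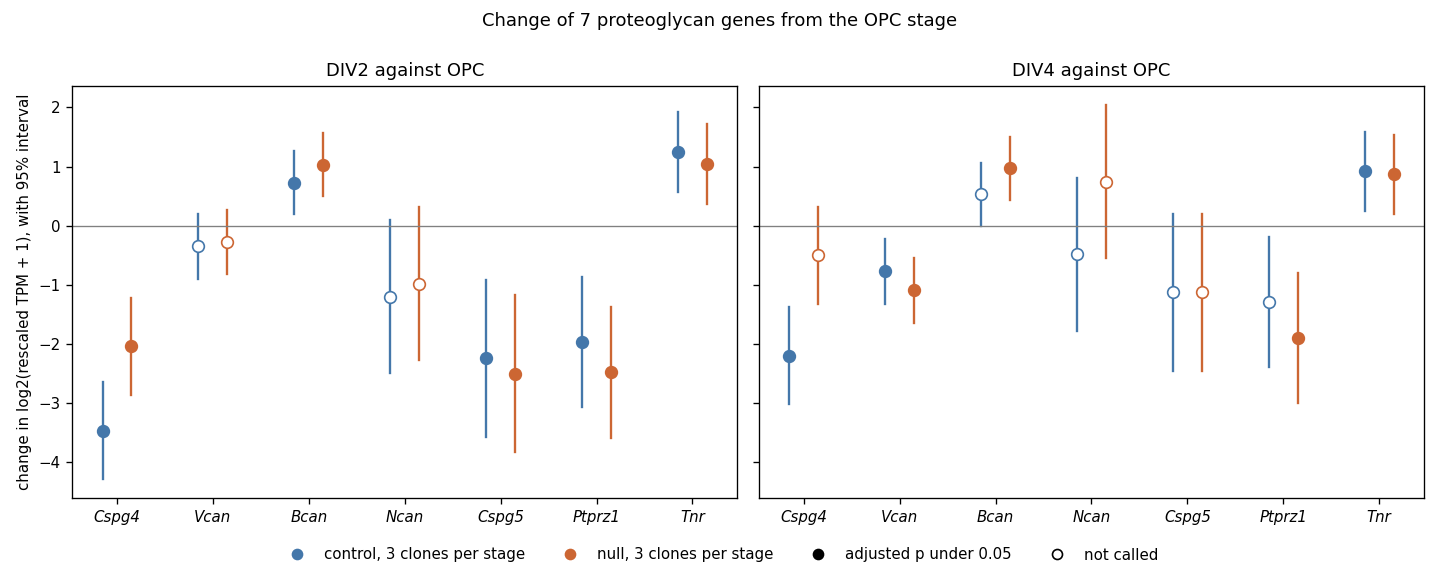
Change in log2(rescaled TPM + 1) from the OPC stage for the 7 tested genes, at DIV2 (left) and DIV4 (right), in control (blue) and null (orange) clones, 3 clones per stage. Points are estimates, bars are 95% intervals and filled points are called at an adjusted p under 0.05. Cspg4, Cspg5 and Ptprz1 lie below 0 at DIV2 in both genotypes and Bcan and Tnr above it; on the deposited TPM scale the control values of Cspg5 and Ptprz1 at DIV2 and of Cspg4 and Vcan at DIV4 are above 0.

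Between the genotypes 1 of the 7 tested members was called, at 1 stage. In OPCs this member, Cspg4, was lower in null and 0 were higher, where 5.94% of all genes were lower and 6.02% higher, but on the deposited scale Cspg4 read 0.54 higher in null (-0.96 relative to the median gene). At DIV2 limma called 0 members in either direction, where 1.65% of genes were higher and 1.15% lower, and 0 members had an unadjusted p under 0.05. At DIV4 it also called 0, where 2.69% of genes were higher and 2.12% lower, and again 0 members had an unadjusted p under 0.05. Without the control D7 library 1 member, Cspg5, was called at DIV4, lower in null (-1.55, adjusted p = 0.0184, limma), where 2.77% of genes were then higher and 2.22% lower. In OPCs 2 members (Cspg4 and Bcan) had an unadjusted p under 0.05. The median member change was -0.50 in OPCs, -0.23 at DIV2 and -0.11 at DIV4, against 0.04, 0.00 and -0.01 for all genes. Counted without a model, every null library was below every control library for 1 member in OPCs (Cspg4), 2 at DIV2 (Cspg5 and Tnr) and 0 at DIV4, where 12.4%, 15.8% and 13.3% of all tested genes showed this. No tested member had all null libraries above all control libraries at any stage, where 12.8%, 15.1% and 13.4% of all tested genes did.

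The difference between the genotypes in the change over time (the interaction) was called for 0 of the 7 tested members by limma. From OPC to DIV2 it was called higher for 0.265% and lower for 0.2% of all genes, with 1 member (Cspg4) at an unadjusted p under 0.05. From OPC to DIV4 the shares were 1.46% and 1.33%, again with 1 member (Cspg4) at an unadjusted p under 0.05. From DIV2 to DIV4 they were 0.016% and 0.00802%, with 0 members at an unadjusted p under 0.05.

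**Figure D2:**
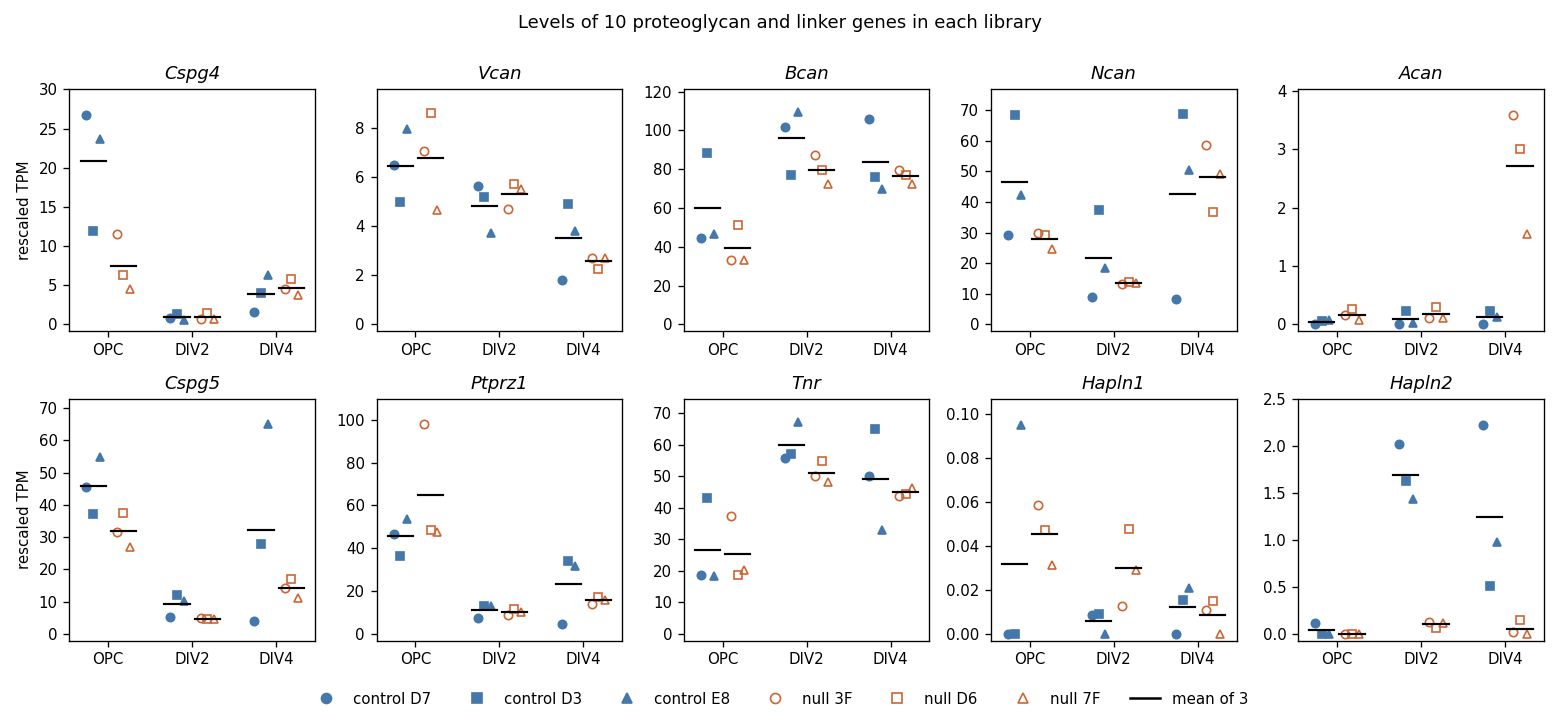
Rescaled TPM of each of the 10 genes at the OPC, DIV2 and DIV4 stages, 1 marker per library, blue for control and orange for null clones, with a horizontal line at the mean of 3. Cspg4 is highest in the control OPCs (11.96 to 26.8), Acan in null DIV4 (1.55 to 3.59) and Hapln2 in control DIV2 and DIV4 (0.514 to 2.23); the order of Cspg4 between genotypes in OPCs is opposite on the deposited scale.

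Cspg4 encodes NG2, the transmembrane proteoglycan used to identify OPCs. Its level in control OPCs was 26.8, 11.96 and 23.7 rescaled TPM in clones D7, D3 and E8 (20.8 ± 7.81, SD, n = 3). In null OPCs it was 11.5, 6.26 and 4.53 in clones 3F, D6 and 7F (7.44 ± 3.65). The highest null clone, 3F, lay just under the lowest control clone, D3, which is the control OPC library with low cell cycle genes. The null change was -1.38 on the log2(rescaled TPM + 1) scale (SE 0.383, adjusted p = 0.0311, limma), while the deposited scale gave 0.54 (-0.96 relative to the median gene). The call was kept in 9 of 17 alternative settings, with adjusted p between 0.0102 and 0.351. The summed level of the 11 other OPC markers measured was also lower in null OPCs, at 469.6 to 574. In control OPCs it was 633, 972 and 604 in D7, D3 and E8, so without D3 the control values lay just above the null ones. Cell cycle genes were at similar levels in the null clones and in control D7 and E8. The part of either in the Cspg4 difference was not tested, and in bulk RNA fewer cells of a type and less RNA per cell cannot be told apart.

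Cspg4 fell steeply from OPC to DIV2 in both genotypes. At DIV2 control clones read 0.813, 1.33 and 0.545 rescaled TPM (0.895 ± 0.397, n = 3) and null clones 0.719, 1.399 and 0.742 (0.953 ± 0.386). The groups of the 2 genotypes overlapped at this stage. The change from OPC was -3.47 in control (adjusted p = 3.16e-05, limma) and -2.04 in null (adjusted p = 0.00141), and both were called in all 17 alternatives. The control fall was the steepest among the 7 tested members. By DIV4 Cspg4 stood at 1.55, 3.98 and 6.25 rescaled TPM in control (3.93 ± 2.35) and 4.47, 5.78 and 3.81 in null (4.69 ± 1.003), and every clone was above its own DIV2 level. The DIV4 level was lower than the OPC level in control (-2.20, adjusted p = 0.000854, limma), although the deposited scale gave 0.28 (-1.74 relative to the median gene). In null the change was -0.50 (adjusted p = 0.345). Clone by clone, the change from OPC to DIV4 was -3.44, -1.38 and -1.77 in control D7, D3 and E8, and -1.19, -0.10 and -0.20 in null 3F, D6 and 7F. The 2 sets did not overlap, but control D3 and null 3F lay close together. How many of all genes have clone changes that do not overlap was not counted. The interaction was 1.70 (adjusted p = 0.102, limma, -0.38 on the deposited scale and 1.29 relative to its median) and 2.04 without the control D3 OPC library (adjusted p = 0.0323). From DIV2 to DIV4 the change was 1.27 in control (adjusted p = 0.202, and 1.69 with adjusted p = 0.0194 without the D7 library) and 1.54 in null (adjusted p = 0.0523, and 0.0176 without that library).

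Bcan, brevican, is the shortest lectican and is made by glia. By mean it was the most abundant of the 10 genes in every group but null OPCs, where Ptprz1 had the higher mean. In control OPCs this rested on clone D3. In D7 and E8 both Cspg5 (45.45 and 54.8) and Ptprz1 (46.55 and 53.7) were above Bcan. Control OPCs read 44.7, 88.6 and 46.5 rescaled TPM (59.9 ± 24.8) and null OPCs 33.3, 51.4 and 33.1 (39.3 ± 10.5). Clone D3 was the highest of the control OPCs and D6 the highest of the null OPCs. At DIV2 control clones read 102, 76.8 and 109.5 (96.0 ± 17.1) and null clones 87.1, 79.4 and 72.6 (79.7 ± 7.27). At DIV4 they read 106, 76.0 and 70.0 (83.9 ± 19.2) and 79.7, 77.0 and 72.3 (76.3 ± 3.77). In the null clones every later library was above every OPC library, and in control only D3 did not go up. Bcan rose from OPC to DIV2 by 0.73 in control (adjusted p = 0.0358, limma, and 0.0566 with the clone as a block) and by 1.03 in null (adjusted p = 0.00701). At DIV4 the null change was 0.97 (adjusted p = 0.00811), and the control change of 0.53 (adjusted p = 0.12) became 0.84 without the D3 OPC library (adjusted p = 0.00689). Over 17 alternatives the DIV2 rise of Bcan had an adjusted p under 0.05 in 9 for control (7.87e-07 to 0.288) and in 15 for null (0.00112 to 0.117).

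Tnr, tenascin-R, is a trimeric glycoprotein of oligodendrocytes that binds the lecticans and can itself carry chondroitin sulfate. Control OPCs read 18.7, 43.1 and 18.4 rescaled TPM (26.7 ± 14.2) and null OPCs 37.5, 18.6 and 20.2 (25.4 ± 10.5). In each genotype 1 clone (D3 and 3F) was well above the other 2. At DIV2 control clones read 55.9, 57.1 and 67.3 (60.1 ± 6.25) and null clones 50.2, 55.0 and 48.4 (51.2 ± 3.42), so that all null libraries lay just under all control ones. At DIV4 they read 49.98, 65.1 and 32.8 (49.3 ± 16.2) and 43.9, 44.6 and 46.5 (45.0 ± 1.34). Tnr rose from OPC to DIV2 by 1.25 in control (adjusted p = 0.00745, limma) and 1.05 in null (adjusted p = 0.0222). At DIV4 the changes were 0.92 (adjusted p = 0.0375) and 0.87 (adjusted p = 0.0467), and neither was called without the control D7 library of DIV4 (adjusted p = 0.0864 and 0.0501). Over 17 alternatives the DIV2 rise of Tnr had an adjusted p under 0.05 in 14 for control (3.54e-06 to 0.0764) and 13 for null (0.00482 to 0.218), and the DIV4 rise in 10 and 11. Across the 6 group means Tnr and Bcan had the most similar course of any pair of members, with a root-mean-square difference of 0.19 on the centred log2 scale, while Tnr and Cspg4 were the least alike (1.65).

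Ncan, neurocan, is a lectican of the developing brain. Control OPCs read 29.1, 68.3 and 42.3 rescaled TPM (46.6 ± 19.9) and null OPCs 29.9, 29.2 and 24.6 (27.9 ± 2.90). At DIV2 they read 8.89, 37.3 and 18.5 (21.6 ± 14.5) and 13.2, 13.9 and 13.6 (13.6 ± 0.349). At DIV4 control clones read 8.29, 68.8 and 50.3 (42.5 ± 31.02) and null clones 58.6, 36.6 and 49.2 (48.1 ± 11.01). Every clone was lower at DIV2 than as an OPC, and at DIV4 all clones but D7 were back at or above their OPC level. The spread between control clones was wide at each stage, with D3 the highest and D7 the lowest. The change from OPC to DIV2 was -1.20 in control (adjusted p = 0.138, limma, 0.0123 with the clone as a block and 0.0268 without the control D7 library of DIV4), although the deposited scale gave 1.4 (-0.56 relative to the median gene). The change from DIV2 to DIV4 was 1.73 in null (adjusted p = 0.159, 0.0185 with the clone as a block and 0.0242 without the D7 library). In control it was 0.72 (adjusted p = 0.767), and 1.62 without the D7 library (adjusted p = 0.0484).

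Vcan encodes versican, the largest lectican, whose mRNA is spliced into forms that differ in the stretch carrying the sugar chains. Summed over 9 transcripts, control OPCs read 6.50, 4.98 and 7.96 rescaled TPM (6.48 ± 1.49) and null OPCs 7.07, 8.63 and 4.67 (6.79 ± 1.99). At DIV2 they read 5.64, 5.18 and 3.71 (4.84 ± 1.01) and 4.70, 5.73 and 5.52 (5.32 ± 0.543). At DIV4 they read 1.81, 4.90 and 3.82 (3.51 ± 1.57) and 2.70, 2.27 and 2.73 (2.57 ± 0.255). The genotypes overlapped at each stage, and the DIV4 libraries of the null clones were all below their OPC libraries. The change from OPC to DIV4 was -1.10 in null (adjusted p = 0.00423, limma). In control it was -0.78 (adjusted p = 0.0313, 0.0529 with the clone as a block), while the deposited scale gave 1.36 (-0.65 relative to the median gene). The control call rested on clone D7: without its DIV4 library the change was -0.47 (adjusted p = 0.139). Over 16 alternatives the adjusted p for Vcan ranged from 0.00368 to 0.41 in control, where the deposited scale turned the direction, and from 0.00089 to 0.188 in null.

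The 4 long Vcan transcripts use 2 large exons, which code for the sugar-bearing stretches, in the 4 possible ways. The first large exon (exon 7 of 15, 2880 bases, chr13:89702918-89705797) and the second (exon 8, 5217 bases, chr13:89688285-89693501) are kept or skipped, so each form has 1 junction of its own, shown here as the last 15 bases of the upstream exon and, in capitals, the first 15 of the downstream exon (GRCm38, minus strand).
Both large exons (exon 7 to 8): gagaaaacaagacagGTCGATTGAGTGATA
First large exon alone (exon 7 to 9): gagaaaacaagacagGACCTGATCTCTGCA
Second large exon alone (exon 6 to 8): cctactgctttaaacGTCGATTGAGTGATA
Neither large exon (exon 6 to 9): cctactgctttaaacGACCTGATCTCTGCA
The form with the first large exon alone, known as the brain form of versican, was the largest part of the Vcan TPM in each group. Its share was 53.1% ± 4.72 (SD, n = 3) in control OPCs and 47.6% ± 1.86 in null OPCs. It was 45.1% ± 5.03 and 48.1% ± 4.63 at DIV2, and 38.8% ± 5.15 and 51.6% ± 12.3 at DIV4. The form with both large exons held 22.2% to 24.5% in all 6 groups, and the ratio of the first to the second of these forms ranged from 1.23 to 2.91 over the 18 libraries. The 2 forms without the first large exon were minor. The form with the second large exon alone held 6.35% ± 0.176 in control OPCs and 2.49% ± 0.448 in null OPCs, and the form with neither 6.85% ± 3.20 and 1.67% ± 0.451. For both of them no null OPC library reached a control OPC library, with an exact two-sided permutation p of 0.1, the smallest that 3 against 3 can give. Their deposited TPM in control OPCs was low, at 0.0632 to 0.117 and 0.0490 to 0.166, in libraries largely filled by the 3 noncoding features. At DIV2 the form with the second large exon alone went the other way (2.67% ± 0.110 in control, 3.49% ± 0.565 in null, exact permutation p of 0.1), and at DIV4 the groups overlapped. All 9 Vcan transcripts were tested at 3 stages. An exact permutation p of 0.1 was also reached in OPCs by the shorter ENSMUST00000160029, ENSMUST00000159337 and ENSMUST00000162715, and at DIV4 by ENSMUST00000159337. Such shares are estimates of a quantifier from reads that the forms largely have in common, and the remaining 5 transcripts, at most 2273 bases long, are fragments of the annotation.

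**Figure D3:**
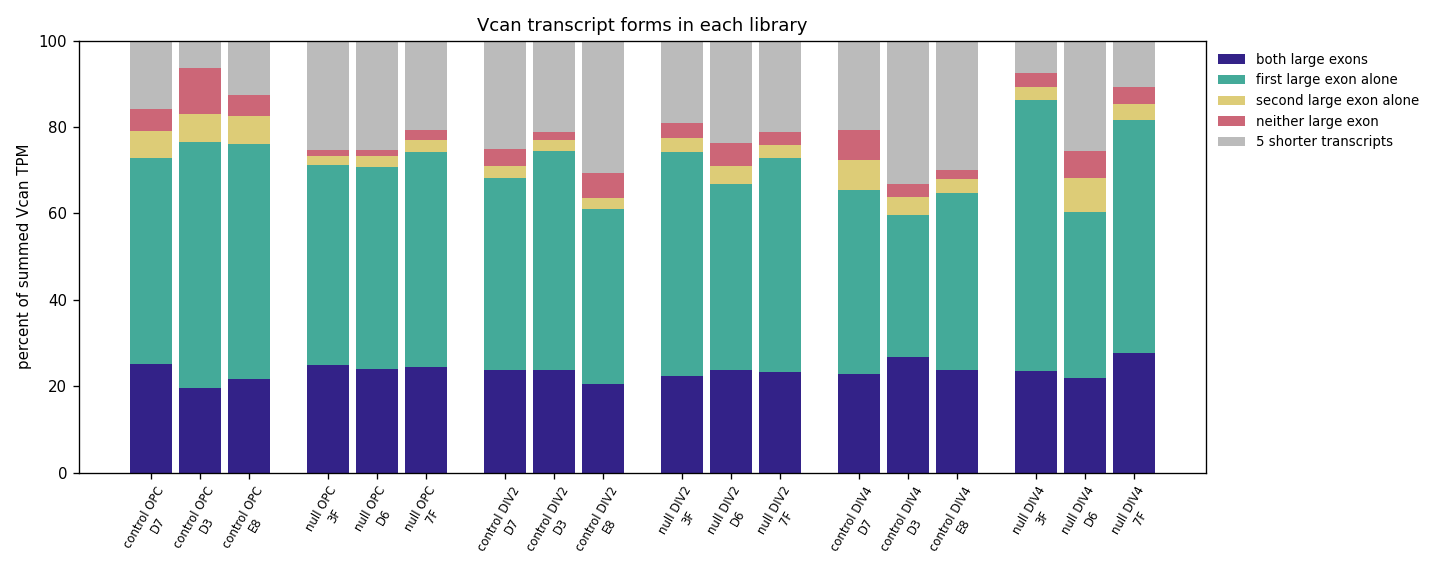
Share of the summed Vcan TPM held by each transcript form, in percent, 1 bar per library. The form with the first large exon alone (green) is the largest of the 4 long forms in all 18 libraries, and the forms without the first large exon (yellow and red) are larger in the 3 control OPC bars than in the 3 null OPC bars.

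Acan, aggrecan, is the lectican of cartilage and of perineuronal nets. It was near 0 in 5 of the 6 groups, with at most 0.290 rescaled TPM in any of their 15 libraries, and appeared in the null clones at DIV4. There it read 3.59, 3.01 and 1.55 in clones 3F, D6 and 7F (2.72 ± 1.05, n = 3), against 0.00751, 0.228 and 0.130 in control D7, D3 and E8 (0.122 ± 0.110). The lowest null clone was well above the highest control clone, and the ratio of the means was 22.3. The exact two-sided permutation p was 0.1, the smallest that 3 against 3 can give. With no filter on low values limma gave a null change of 1.69 at DIV4 (SE 0.171, adjusted p = 0.000171 over 30396 genes, of which 1.91% were called). That fit shares 1 estimate of the spread over all 6 groups, and Acan was near 0 in 5 of them. Its SE and adjusted p are therefore set mostly by libraries near 0, and not by the spread of the null DIV4 clones. In that fit Acan also rose from OPC to DIV4 in null (1.63, adjusted p = 5.53e-05) and from DIV2 to DIV4 in null (1.63, adjusted p = 0.000767). The interaction was 1.53 from OPC to DIV4 (adjusted p = 0.0127) and 1.57 from DIV2 to DIV4 (adjusted p = 0.0444). The astrocyte markers also stood higher in null DIV4 than in null DIV2 (47.7 to 51.6): they summed to 287, 208 and 303 in null DIV4 and to 16.2, 250.2 and 508 in control DIV4. Control E8 at DIV4 had the highest astrocyte sum of all libraries. Of the 9 astrocyte markers 3 were under 1 rescaled TPM in all null DIV4 libraries, among them Aqp4 at 0.138 to 0.200, while Gfap was at 80.4 to 139. Fgfr3 was at 8.70 to 12.8 in null DIV4 and 1.95 to 8.57 in control DIV4, and Aldoc at 95.6 to 184 and 11.3 to 142.5. These are single genes out of the 9, and control DIV4 values of the others are not given here. The sum over all 9 did not separate the genotypes at DIV4. Control E8 lay above every null library, D3 within the null range and D7 below it. The part of these markers in the Acan difference was not tested.

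Hapln2, the brain link protein also called Bral1, is made by oligodendrocytes and stabilises the matrix at nodes of Ranvier. It was read in control clones after differentiation and stayed near 0 in null clones. In OPCs 5 of 6 libraries were at 0. At DIV2 control clones read 2.02, 1.63 and 1.43 rescaled TPM (1.69 ± 0.3001) and null clones 0.128, 0.0627 and 0.121 (0.104 ± 0.0359), a ratio of means of 16.3. At DIV4 control clones read 2.23, 0.514 and 0.9799 (1.24 ± 0.886) and null clones 0.0207, 0.151 and 0 (0.0572 ± 0.0818), a ratio of 21.7. The groups were far apart at both stages, and the exact two-sided permutation p was 0.1 at each, the smallest possible. With no filter limma gave a null change of -1.28 at DIV2 (adjusted p = 0.00458, where 0.98% of genes were called) and -1.01 at DIV4 (adjusted p = 0.0177). As for Acan, the shared spread includes groups in which Hapln2 was near 0. In control the rise from OPC was 1.37 to DIV2 (adjusted p = 0.000546) and 1.04 to DIV4 (adjusted p = 0.00377). The interaction from OPC to DIV2 was -1.23 and missed the threshold (adjusted p = 0.0942).

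The 14 oligodendrocyte markers were read beside Hapln2. At DIV2 they summed to 7326, 4327 and 5786 in control and 4206, 4374 and 3810 in null, and at DIV4 to 13630, 3071 and 2732 in control and 2425, 3393 and 2554 in null. The sums rest on the most abundant of these genes, and some of the others were also lower in null. Mobp, a myelin protein, was at 19.4 to 25.6 rescaled TPM in control DIV2 and 0.555 to 2.23 in null DIV2, and at 40.6 to 425.6 and 0.104 to 6.85 at DIV4. Ermn, a late oligodendrocyte gene, was at 1.12 to 4.41 in control DIV4 and 0.0170 to 0.450 in null DIV4. Mobp and Ermn are single genes out of the 14, the others are not given by gene here, and the control DIV4 ranges include clone D7. The DIV4 sum of null D6 (3393) was above those of control D3 and E8 (3071 and 2732), so the markers did not all go this way. The part of the oligodendrocyte markers in the Hapln2 difference was not tested. Most of the Hapln2 TPM in control belonged to a retained-intron transcript (ENSMUST00000160737), with 59.8% ± 6.52 at DIV2 and 51.8% ± 27.7 at DIV4. The protein-coding transcript (ENSMUST00000005014) was at a mean of 0.253 rescaled TPM in control DIV2 against 0.0202 in null DIV2, so the order held for it too. Hapln1, the cartilage link protein, read at most 0.0952 rescaled TPM in any library and is listed at 0 in several.

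**Figure D4:**
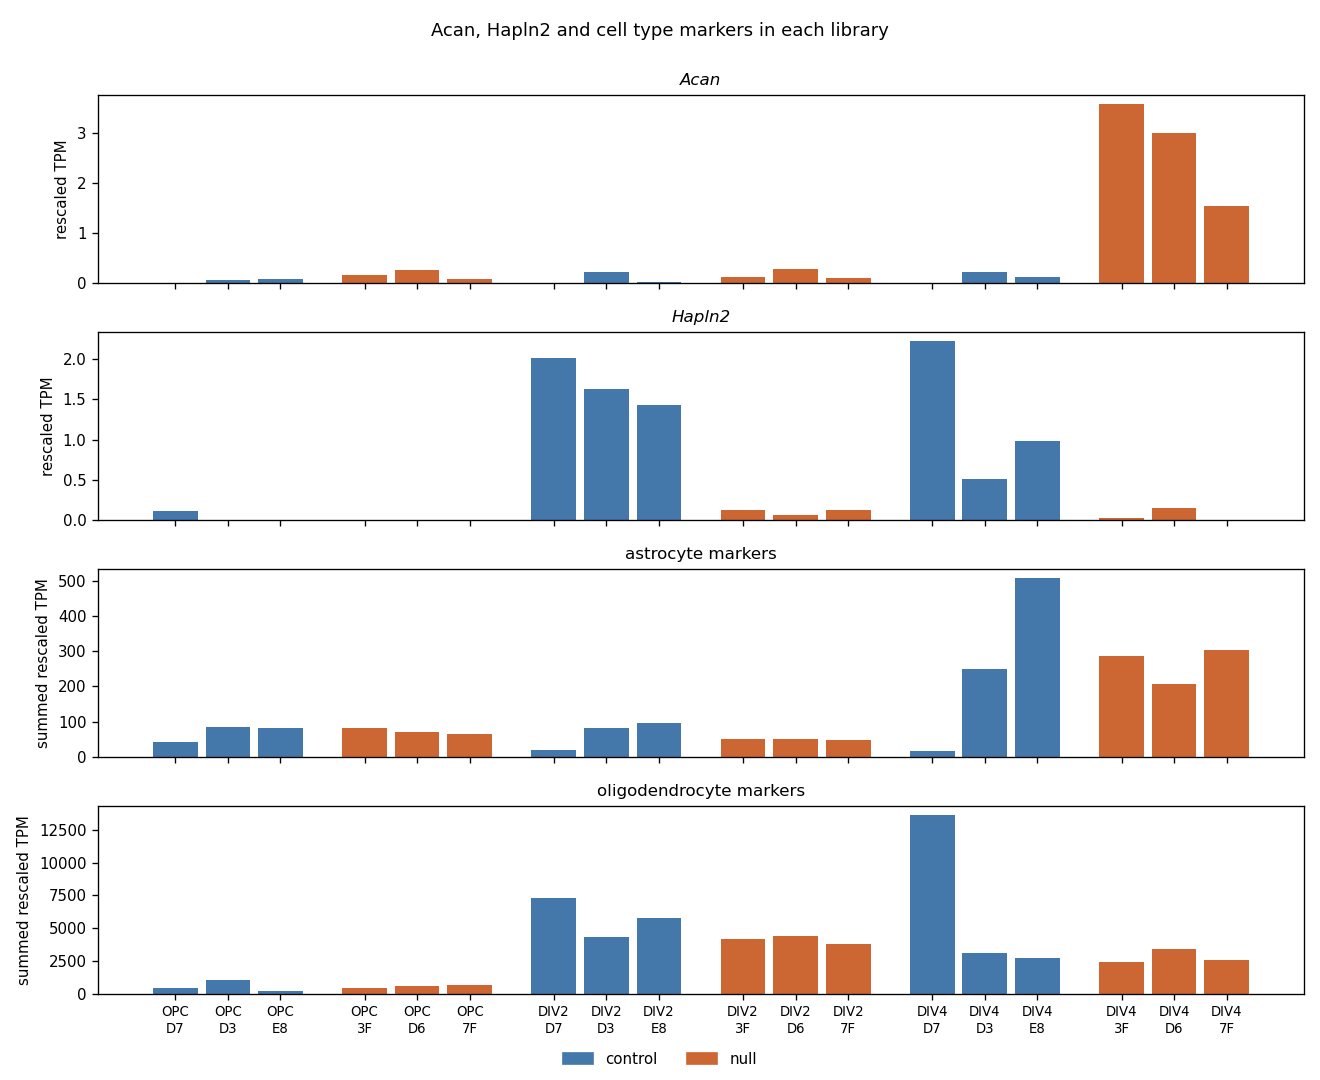
Rescaled TPM of Acan and Hapln2 (upper panels) and summed rescaled TPM of 9 astrocyte and 14 oligodendrocyte markers (lower panels), 1 bar per library, control in blue and null in orange. Acan stands out in the 3 null DIV4 libraries and Hapln2 in the 6 control DIV2 and DIV4 libraries, while the ranges of the marker sums overlap between genotypes at each stage. The oligodendrocyte sums of control D7 and E8 at DIV2 are above every null DIV2 library, and control D7 stands apart at DIV4.

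Cspg5, neuroglycan C, is a transmembrane proteoglycan with an EGF-like domain. Control OPCs read 45.5, 37.3 and 54.8 rescaled TPM (45.8 ± 8.77) and null OPCs 31.5, 37.3 and 27.0 (32.0 ± 5.19). At DIV2 they read 5.40, 11.98 and 10.2 (9.18 ± 3.40) and 4.88, 4.69 and 4.68 (4.75 ± 0.115). At DIV4 control clones read 3.99, 28.0 and 65.0 (32.4 ± 30.8) and null clones 14.2, 17.1 and 11.3 (14.2 ± 2.92). All null libraries were below all control libraries at DIV2, and at DIV4 the null libraries lay between control D7 and the other 2. The change from OPC to DIV2 was -2.25 in control (adjusted p = 0.0123, limma), although it was 0.35 on the deposited scale (-1.61 relative to the median gene), and -2.51 in null (adjusted p = 0.00779). The genotype difference at DIV4 was -0.50 (adjusted p = 0.715), and -1.55 without control D7 (adjusted p = 0.0184). That library also decided the change from DIV2 to DIV4 in control, which was 1.12 with it (adjusted p = 0.592) and 2.17 without it (adjusted p = 0.00471). In null the DIV2 to DIV4 change was 1.38 (adjusted p = 0.283, and 0.0188 without D7), and the OPC to DIV4 change was -1.12 (adjusted p = 0.183, and 0.00924 without D7). The DIV2 fall of Cspg5 had an adjusted p under 0.05 in 16 of 17 alternatives for control, all but the deposited scale (0.677), and in 13 for null (up to 0.0823).

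Ptprz1 encodes a receptor-type phosphatase whose outer part carries chondroitin sulfate and binds pleiotrophin, contactin-1 and tenascin-R. Control OPCs read 46.5, 36.5 and 53.7 rescaled TPM (45.6 ± 8.61) and null OPCs 98.0, 48.5 and 47.8 (64.7 ± 28.8). The null mean was carried by clone 3F, and the other 2 null clones lay within the control range. At DIV2 control clones read 7.22, 13.2 and 13.02 (11.1 ± 3.39) and null clones 8.71, 11.5 and 10.3 (10.2 ± 1.41). At DIV4 they read 4.79, 33.9 and 31.8 (23.5 ± 16.2) and 14.2, 17.1 and 15.7 (15.7 ± 1.49). As for Cspg5, control D7 was the lowest DIV4 library and the null clones lay between it and the other 2 control clones. The change of Ptprz1 from OPC to DIV2 was -1.97 in control (adjusted p = 0.00923, limma), although the deposited scale gave 0.64 (-1.32 relative to the median gene), and -2.48 in null (adjusted p = 0.00274). At DIV4 the null change was -1.90 (adjusted p = 0.011). The control change was -1.29 (adjusted p = 0.0687, limma, and 0.0491 with the clone as a block), and -0.45 without the D7 library of DIV4 (adjusted p = 0.289). On the deposited scale the control mean went up, from 10.6 TPM in OPCs to 45.1 at DIV4. From DIV2 to DIV4 the control change was 0.67 (adjusted p = 0.741), and 1.52 without D7 (adjusted p = 0.0119). The DIV2 fall of Ptprz1 had an adjusted p under 0.05 in 15 of 17 alternatives in each genotype, with at most 0.406 in control (deposited scale) and 0.0683 in null.

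Shares within the set do not depend on how the libraries are scaled. The 10 genes summed to 252.0 ± 36.7 rescaled TPM in control OPCs and 204 ± 43.6 in null OPCs, 206 ± 18.4 and 166 ± 8.70 at DIV2, and 240.3 ± 54.5 and 209 ± 10.4 at DIV4. In control OPCs Bcan held 23.2% ± 6.31 of that sum, Cspg5 18.6% ± 5.05, Ptprz1 18.5% ± 5.18, Ncan 17.99% ± 5.11, Tnr 10.3% ± 3.98 and Cspg4 8.65% ± 4.16. Cspg5, Ptprz1 and Ncan lay within their spread of each other. The lead of Bcan came from clone D3 (30.5%). In D7 and E8 Bcan held 20.5% and 18.8%, less than Cspg5 and Ptprz1. At DIV2 Bcan and Tnr made up most of the sum, with 46.8% ± 8.52 and 29.2% ± 1.17 in control and 48.0% ± 2.87 and 30.8% ± 1.21 in null, while Cspg5 had gone to 4.42% ± 1.49 and 2.87% ± 0.136. At DIV4 Bcan held 37.7% ± 18.7 and 36.5% ± 1.16 and Tnr 21.2% ± 7.89 and 21.5% ± 1.56. Between the genotypes, 6 of 30 share tests (10 genes at 3 stages) reached the smallest possible exact permutation p of 0.1. They were Ptprz1 in OPCs (18.5% ± 5.18 in control, 31.01% ± 7.69 in null), Acan in OPCs and at DIV4, Hapln1 at DIV2, and Hapln2 at DIV2 and DIV4. This p means that the 2 groups do not overlap. By level, 12.8% of all tested genes lay wholly higher in null OPCs and 12.4% wholly lower. At DIV2 it was 15.1% and 15.8%, and at DIV4 13.4% and 13.3%. Acan in OPCs (0.0164% in control, 0.0799% in null) and Hapln1 at DIV2 (0.00298% and 0.0179%) were near 0. Cspg4 held 3.52% ± 0.979 of the sum in null OPCs (exact permutation p of 0.2), since null 3F and control D3 overlapped.

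**Figure D5:**
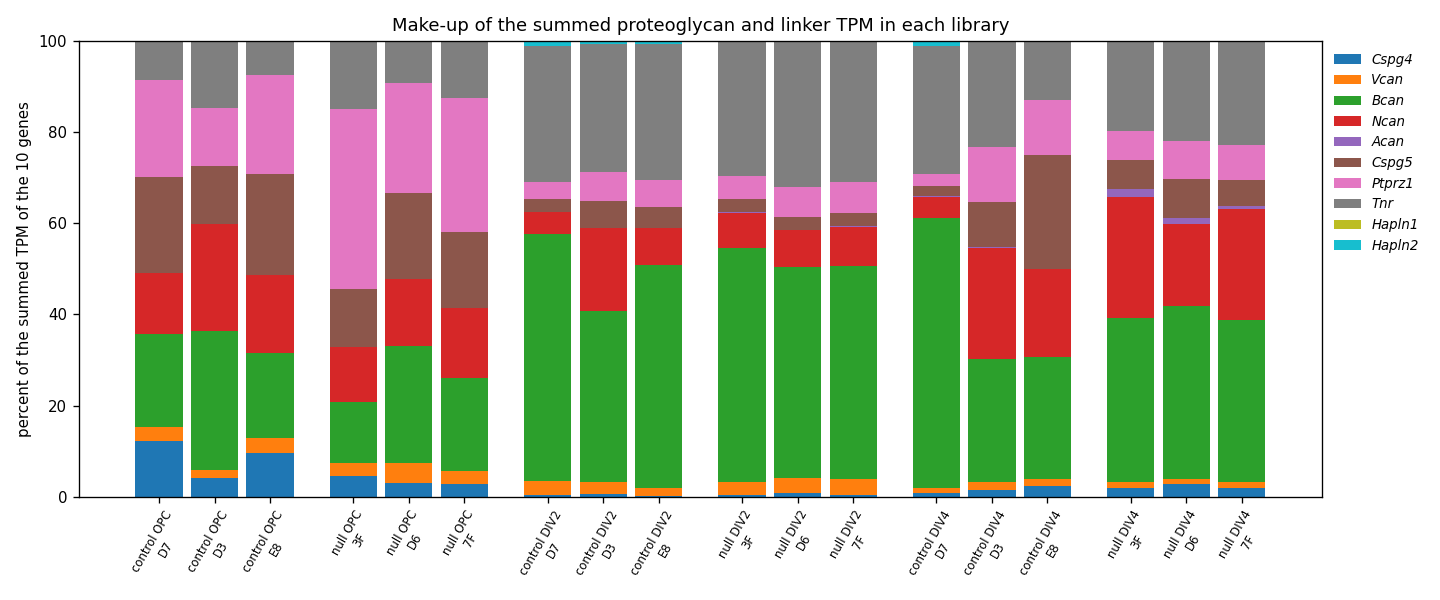
Make-up of the summed TPM of the 10 genes in each library, in percent, 1 bar per library grouped by genotype and stage. Bcan and Tnr take the largest part at DIV2 (46.8% and 29.2% on average in control), and Ptprz1 takes more in null OPCs (31.01%) than in control OPCs (18.5%).

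Of the other genes of the pathway, those that make the sugar chains were read most fully, with 17 of 22 tested. In null OPCs 2 of the 17 were lower and 0 higher, where 5.94% of all genes were lower and 6.02% higher. Chst12, a chondroitin 4-O-sulfotransferase, was at 0.712 ± 0.216 rescaled TPM against 2.36 ± 0.463 in control (-0.97, 0.11 on the deposited scale and -1.39 relative to its median). It passed the filter only through control OPCs, with a mean of 0.93 over the other 5 groups, so its values are given as a description. Xylt2, a xylosyltransferase that starts the chains, was at 4.16 ± 0.476 against 6.85 ± 1.74 (-0.59, adjusted p = 0.0357, limma, but 1.03 on the deposited scale, -0.48 relative to its median, and 0.17 with protein-coding transcripts alone). At DIV2 1 of 17 was higher in null, where 1.65% of all genes were, the polymerase gene Chsy3 (4.58 ± 1.29 against 1.53 ± 0.0315 rescaled TPM, 1.11, adjusted p = 0.0143). At DIV4 1 of 17 was higher in null, where 2.69% of all genes were, Chst3, a chondroitin 6-O-sulfotransferase, at 12.2, 15.4 and 16.2 rescaled TPM against 4.83, 7.78 and 3.91 in control (1.298, adjusted p = 0.0202). All null clones were above all control clones for Chst3 at that stage, as for 13.4% of all tested genes.

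From OPC to DIV2 limma called 3 of the 17 assembly genes higher and 4 lower in control (17.7% and 17.3% of all genes), and 5 higher and 0 lower in null (14.4% and 13.5%). From OPC to DIV4 it called 3 higher and 5 lower in control (16.1% and 16.1%), and 5 higher and 0 lower in null (16.5% and 16.8%). The interaction from OPC to DIV4 was called for 2 of the 17 (Chst12 and Xylt2), both higher, where 1.46% of all genes were. Chst12 is also among the genes lower in control at DIV2 and at DIV4. It passed the filter only through control OPCs, so its part in these counts is a description. The difference between the genotypes over the list was not tested. On the deposited scale 3 of the 4 and all 5 of the lower control genes read higher, and each of them stayed below the median gene. Ust, the uronyl 2-O-sulfotransferase, was at 2.85 ± 1.69 rescaled TPM in control OPCs and 6.29 ± 0.885 at DIV4 (0.998, adjusted p = 0.0159, limma). Xylt1, the other xylosyltransferase, was at 15.9 ± 7.85 in control OPCs and 4.22 ± 2.99 at DIV4 (-1.75, adjusted p = 0.0155), although the deposited scale gave 0.67 (-1.34 relative to the median gene).

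Among 7 hyaluronan matrix partners 3 were tested. The hyaluronan receptor Cd44 had values 1.11 above control in null at DIV2 and 1.36 above at DIV4 on the log2 scale, with 3.86 ± 0.363 rescaled TPM in null DIV4 and 0.991 ± 0.713 in control DIV4. Its null libraries lay wholly above the control libraries in OPCs, at DIV2 and at DIV4. Of all tested genes 12.8%, 15.1% and 13.4% did so at these stages. Cd44 passed the filter only through null DIV4, with a mean of 0.777 over the other 5 groups, so these values are given as a description. Of 8 receptors and ligands 5 were tested, and 2 were lower in null OPCs and 0 higher (5.94% and 6.02% of all genes). From OPC to DIV4 the list had 0 higher and 2 lower in control (16.1% and 16.1%), and 1 higher and 2 lower in null (16.5% and 16.8%). The heparin-binding growth factor midkine, Mdk, was at 0.873 ± 0.334 rescaled TPM in null OPCs against 4.82 ± 0.368 in control OPCs (-1.65). It passed the filter only through control OPCs, with a mean of 0.972 over the other 5 groups. Its difference, and its part in the counts of lower genes (in null OPCs and in control at DIV4), are likewise a description. The chondroitin sulfate receptor Ptprs was at 23.8 ± 3.24 against 44.5 ± 9.92 (-0.86, adjusted p = 0.00299, limma, but 1.17 on the deposited scale, -0.33 relative to its median). Cntn1, contactin-1, a binding partner of Ptprz1 and Tnr, was at 203 ± 13.5 in control OPCs and 117.5 ± 43.0 at DIV4 (-0.84, adjusted p = 0.0377, although 1.91 on the deposited scale, -0.10 relative to the median gene). Of 7 ADAMTS proteases, which cut the lecticans, 3 were tested. Adamts4 went from 2.34 ± 0.517 rescaled TPM in control OPCs to 44.5 ± 11.4 at DIV2 and 37.1 ± 29.4 at DIV4 (3.26 at DIV4 against OPC, adjusted p = 7.74e-05, limma), and rose in null as well (2.27, adjusted p = 0.000536). Of 6 further carriers of chondroitin sulfate only Spock2 was tested; it was lower at DIV2 than in OPCs in control (-0.81, adjusted p = 0.0248, 0.94 on the deposited scale and -1.02 relative to its median) and in null (-0.88, adjusted p = 0.0193). Cntn1, Adamts4, Chst3, Ust and Xylt1 were named by a rule on size, and the other genes of these lists after their values were seen.

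The genes outside the set whose course over the 6 group means was nearest to each tested member, by root-mean-square difference on the centred log2 scale, were as follows. For Cspg4 they were Rlbp1 (0.25), Pxdc1 (0.30) and Dusp6 (0.36), and for Cspg5 Shc3 (0.20), Etv5 (0.23) and again Pxdc1 (0.24). Ptprz1 was nearest to Mmp16 (0.14), Sms (0.15) and H2afz (0.16), and Ncan to Ntm (0.17), Dclk1 (0.18) and G0s2 (0.22). Bcan was nearest to Cxx1b (0.06), Fam76a (0.06) and Tecpr1 (0.07). For Tnr they were Rab5a (0.06), Qk (0.06) and Tmem19 (0.09), and for Vcan Pomp (0.07), 1810022K09Rik (0.07) and Sarnp (0.08). Members with large changes had nearest genes at larger distances than members with small ones, and these likenesses rest on 6 means.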

How the data were processed

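The deposited table holds TPM per Ensembl transcript for 93666 transcripts in 18 libraries, and a transcript length that the authors deposited as other information, which was not used in any test. The kit was stranded and took out ribosomal RNA from total RNA, per the labels' protocols. The submitters' processing notes name STAR, Picard and mm10, and the quantifier is not given in the sources used here. Each deposited TPM column sums to 1000000, so depth is unknown and no counting error is given.

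Transcript TPM was summed by symbol to 38046 genes, after 25 names that had turned into dates were restored. Of the transcript identifiers, 96.6% were found in GENCODE M21 on GRCm38, used for coordinates and transcript classes. That release may not be the authors'. Libraries were rescaled by median-of-ratios factors from 11432 genes, which assumes that most genes do not change. Genes with a mean of at least 1 rescaled TPM (12473) entered a limma 3.58.1 fit (R 4.3.3) of log2(rescaled TPM + 1), a scale that understates the change of low genes. The fit had 6 group means over all 18 libraries and eBayes with a trend. Benjamini-Hochberg adjustment ran over all tested genes of a comparison, and calls needed an adjusted p under 0.05. Single values and shares were compared by exact permutation (two-sided), which with 3 against 3 gives at least 0.1. The fit was checked on simulated data. Python 3.11.15 with pandas 2.3.3, numpy 2.4.6, scipy 1.17.1 and matplotlib 3.10.9 was used for the rest.

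Libraries of 1 clone come from the same clonal line, which pairs the stages. Deviations from the group means of the same clone at different stages correlated at a mean of 0.119 (range -0.009 to 0.423, 18 pairs), against -0.059 for different clones (36 pairs). Alternatives were deposited TPM, quantile normalization, protein-coding transcripts alone, no filter, a mean of at least 5, a pseudocount of 0.1, eBayes without trend, only the groups compared, each clone left out and the clone as a block. Those chosen after seeing the data were leaving out the control D3 OPC or the control D7 DIV4 library, the fit without a filter for Acan, Hapln1 and Hapln2, and a minimum mean of 1 in place of 5 for transcript shares, since Vcan lies just under 5.

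The members and gene lists were chosen with earlier results of these data known. Named were the 10 members, Thap1, identity markers (1 of which is not reported here), the largest called rise and fall in each pathway list (null against control at DIV4, and DIV4 against OPC in control, mean of at least 5), and the 3 nearest protein-coding genes to each member.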

Additional observations from a re-analysis of the deposited data

Results flagged for a closer look

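The change from OPC to DIV4 differed between the genotypes by limma's interaction term for 2 genes that assemble chondroitin sulfate. The difference, null minus control, was 1.262 for Chst12, which went from 2.36 to 0.648 rescaled TPM in control and from 0.712 to 1.01 in null. It was 0.949 for Xylt2 (adjusted p = 0.0473), which went from 6.85 to 4.14 in control and from 4.16 to 5.59 in null. On the deposited scale the values were 0.11 for Chst12 (adjusted p = 0.823, 1.79 relative to the median gene) and -0.81 for Xylt2 (adjusted p = 0.108, 0.87 relative to the median gene). With protein-coding transcripts alone neither was called, at 1.69 for Chst12 (adjusted p = 0.0678) and 0.39 for Xylt2 (adjusted p = 0.463). Chst12 passed the filter on low values only through control OPCs, so its difference helped it into the test. Its call is therefore no support for a difference, and its values are a description.

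For Acan, in the fit without a filter on low values, the difference between the genotypes was 1.533 in the change from OPC to DIV4 (adjusted p = 0.0127) and 1.575 in the change from DIV2 to DIV4 (adjusted p = 0.0444). The spread behind both values is shared with groups in which Acan was near 0, so it does not measure that of the null DIV4 clones. Groups of 3 libraries are too small for a test of single outlying libraries.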

How the results depend on the processing

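Members called, in all alternatives tried, depended on the setting in each comparison. In OPCs between genotypes (1 in the report) there were 4 on deposited TPM, all higher in null, and 0 with protein-coding transcripts alone, a pseudocount of 0.1, no filter or only the groups compared, and 0 to 2 with a clone left out. At DIV2 no filter gave 1. At DIV4 protein-coding transcripts gave 1, no filter 2, leaving out the control D7 library 1, and leaving out clones 0 to 2. For DIV2 against OPC, control (5) had 3 with only the groups compared and 3 to 5 with a clone left out, and null (5) had 2 on deposited TPM and 2 to 6 with a clone left out. For DIV4 against OPC, control (3) had 0 with only the groups compared, 1 without D7 and 1 to 5 with a clone left out, and null (4) had 1 on deposited TPM and 1 to 5 with a clone left out. For DIV4 against DIV2, control (0) had 4 without D7 and 0 to 1 with a clone left out. Null (0) had 1 with quantile normalization, no filter, a pseudocount of 0.1, a mean of at least 5, the clone as a replicate block or without control D3, 2 with protein-coding transcripts, 5 with only the groups compared, 4 without D7 and 0 to 4 with a clone left out. For the interactions (0 each), deposited TPM gave 4 from OPC to DIV2 and 4 from OPC to DIV4. From OPC to DIV4 protein-coding transcripts, no filter and leaving out control D3 gave 1 each, and clones left out 0 to 1. From DIV2 to DIV4 no filter gave 1.

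On deposited TPM, of 18 called changes of the tested members 5 turned, 6 lost the call and 7 kept it, and of 66 not called 20 turned. Among the changes given in the report those that turned included Cspg4 in OPCs between genotypes 0.54, Ncan 1.4, Cspg5 0.35 and Ptprz1 0.64 at DIV2 in control, Cspg4 0.28 and Vcan 1.36 at DIV4 in control, and the Cspg4 interactions -0.60 and -0.38. On deposited TPM each library is scaled to a total that 3 noncoding features largely fill in control OPCs. The part of this in the turned directions was not tested. Cspg5 between genotypes at DIV4 (-0.50) was -1.55 without clone D7 and turned to 0.32 without clone E8, and the cause was not tested. Called changes of the 7 tested members kept their direction and call in 124 of the values under the other scalings, filters and models and lost the call in 18, and with libraries left out they kept it in 107 and lost it in 37. With the clone as a replicate block, Ptprz1 at DIV4 against OPC in control was called (-1.29, adjusted p = 0.0491, limma) and so was Ncan at DIV2 against OPC in null (-0.98, adjusted p = 0.0358). The block moved the calls given in the report for Bcan, Vcan, Ncan and Ptprz1 and no other. Alternatives for shares were run only for Bcan, Ncan, Ptprz1, Tnr, Cspg5 and Cspg4 as members and for some Vcan transcripts. All 141 member share values and all 84 transcript share values run in this way stayed within the spread between clones. The member shares of Acan, Hapln1, Hapln2 and Vcan were not run under alternatives, so their stability was not tested. The levels of Acan, Hapln1 and Hapln2 lie near the bottom of the scale, where depth, which is unknown, would set the precision.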
